A study of Mus musculus with 18 samples.

Results

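Heart fibroblasts and kidney fibroblasts that had spent 3 days in the same foreign site, the space under the kidney capsule of a host mouse, were compared across all genes. The comparison takes 6 of the 18 RNA-seq libraries of the study: the 3 libraries labelled as transplanted heart fibroblasts (HFs) and the 3 labelled as transplanted kidney fibroblasts (KFs). The rule that picks these 6 libraries uses their labels and no measured value. The other 12 libraries (transplanted tail fibroblasts and the cultured controls of all 3 organs) entered the same fit. Of these, the cultured heart (HFc) and cultured kidney (KFc) fibroblasts, with 3 libraries each, served as the reference for how the organs differed in culture. They were replated cells and not cells taken just before transplantation. Donors were male Rosa mT/mG mice, kept on a C57BL/6 background and aged 10 weeks, whose cells carry a red membrane reporter (TdTomato). The cells grew in culture for 10 days, were loaded onto gelatin foam and were placed in C57BL/6J hosts aged 10 to 11 weeks. Cells that lacked the leukocyte marker CD45 and carried TdTomato were sorted from the hosts 3 days later, and the leftover cells were replated as the cultured controls. The reporter marks every donor cell and not fibroblasts alone. The gate is meant to remove host cells and CD45+ cells and selects no other cell type, and its purity was not tested. For the donor cells the study's methods refer back to its general isolation, which ends in a sort for CD90+ cells lacking CD45 and CD31, and do not say whether that sort was applied here. For this experiment the labels do not tie the replicates to separate donor or host mice, so the p-values below measure the spread between libraries. That spread was estimated from all 18 libraries together and not from the 6 compared alone.

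Fibroblasts are the connective tissue cells that build and remodel the extracellular matrix. Fibroblasts of different organs share this work but keep part of the gene program of their origin: heart fibroblasts, which arise largely from the epicardium, carry transcription factors of heart development, and fibroblasts of more posterior organs carry genes of the Hox clusters, which record position along the body axis. The site to which the cells were moved is the native organ of the kidney fibroblasts and not that of the heart fibroblasts.

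One library stood apart from the other 5 before any comparison. In KFs replicate 3 the summed level of the Y-linked genes was 0.722 CPM (counts scaled to a common library size), or 18 counts, against 185 to 230 CPM in the other 5 libraries, and Xist, the RNA that silences an X chromosome in female cells, was at 1490 CPM against at most 0.404 CPM, although the labels give male donors. Its log2 CPM values correlated with those of KFs replicates 1 and 2 at r = 0.937 and 0.938, while these 2 correlated at 0.983 with each other and the HFs libraries at 0.980 to 0.984 among themselves (correlations across genes within pairs of libraries). The summed level of 28 epithelial markers was 386 CPM in KFs replicate 3 and 19 to 61.5 CPM in the other 5, and that of 20 fibroblast markers was 30400 CPM against 80900 to 162000 CPM. Ifi202b, an interferon-inducible gene, was at 105 CPM in KFs replicate 3 and at no more than 0.0404 CPM in the other 5. What sets this library apart was not tested. List counts and log2 differences between HFs and KFs are therefore given with all 6 libraries and again without KFs replicate 3, and where a gene has a pair of log2 differences or folds the second is without that library.

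**Figure D1:**
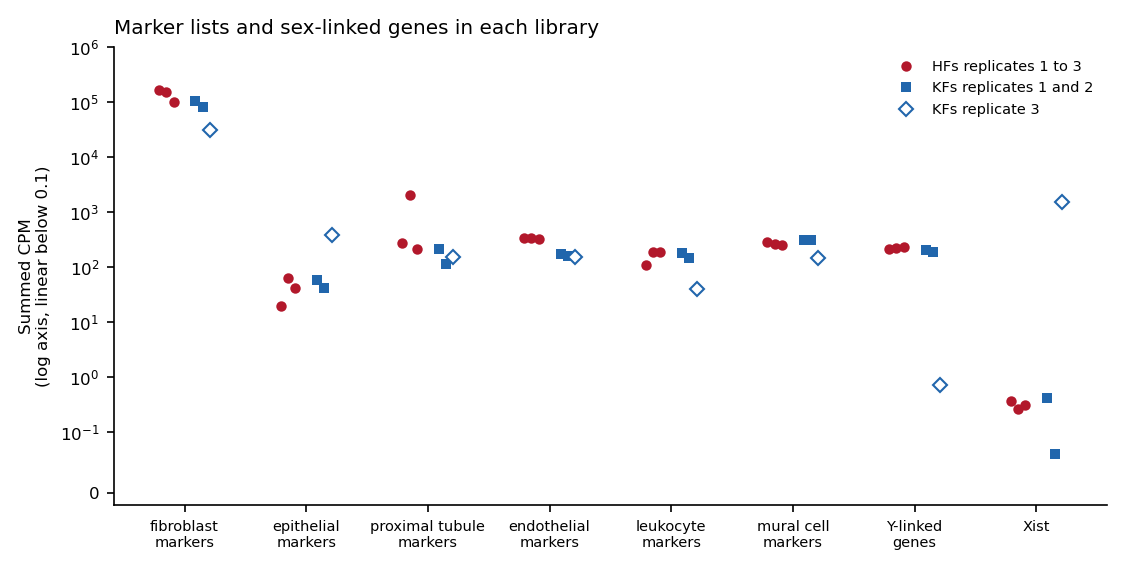
Summed CPM of marker lists and of sex-linked genes (log axis, linear below 0.1) in each of the 6 libraries, with red circles for HFs, filled blue squares for KFs replicates 1 and 2 and open diamonds for KFs replicate 3. KFs replicate 3 lies at 386 CPM for epithelial markers, 0.722 CPM for Y-linked genes and 1490 CPM for Xist, away from the other 5 libraries, and HFs replicate 2 lies highest for proximal tubule markers, at 1990 CPM.

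The markers of fibroblasts were high in both groups. Col1a1, which encodes a chain of collagen I, was at 45890, 40080 and 23410 CPM in HFs and at 37640, 31110 and 8719 CPM in KFs, and Vim, the intermediate filament vimentin, was at 2051 to 2372 CPM and 1878 to 2684 CPM. Neither gene passed the test between the organs (adjusted p = 0.32 and 0.944, and 0.735 and 0.484 without KFs replicate 3, by the quasi-likelihood test of edgeR, adjusted after Benjamini and Hochberg). Some defining markers of other cell types were low in all 6 libraries: the leukocyte antigen Ptprc was at 0.24 to 11.7 CPM, the endothelial antigen Pecam1 at 20.5 to 29.8 CPM, and Nppa, a cardiomyocyte gene, was at 0. Others were not: the tubule genes Slc34a1 and Havcr1 reached 174 CPM in HFs replicate 2 and 628 CPM in KFs replicate 3, the endothelial gene Eng 168 CPM in HFs and the smooth muscle gene Myh11 88.9 CPM in KFs. Summed over 20 genes, leukocyte markers lay at 108 to 183 CPM in HFs and at 178, 142 and 39.2 CPM in KFs, and 16 endothelial markers lay at 324 to 338 CPM in HFs and 149 to 174 CPM in KFs. Proximal tubule markers, which the host kidney expresses, summed to 269, 1990 and 207 CPM in HFs and to 210, 113 and 149 CPM in KFs. In culture they summed to 26.3 to 29.9 CPM in HFc and 115 to 124 CPM in KFc. The part of host RNA in these sums was not tested. In such bulk samples, fewer cells of a type and less RNA per cell cannot be told apart.

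Of 16577 genes tested, 5504 (33.2%) passed an adjusted p of 0.05 with all libraries, 2356 (14.2%) higher in HFs and 3148 (19%) higher in KFs. These calls rest on a spread estimated from all 18 libraries. With only the HFs and KFs libraries in the fit, 883 genes passed, 457 higher in HFs and 426 higher in KFs. Without KFs replicate 3, 6570 of 16923 genes (38.8%) passed, 3071 (18.1%) higher in HFs and 3499 (20.7%) higher in KFs. Both fits called 4763 genes in the same direction, 2114 of them (12.8% of the genes tested) higher in HFs and 2649 (16%) higher in KFs, and 1640 of the 4763 differed by more than 1 on the log2 scale in both fits. A single gene, Dsp, which encodes the desmosome protein desmoplakin, was called in opposite directions: it was at 5.29 to 10.9 CPM in HFs, at 5.86 and 3.40 CPM in KFs replicates 1 and 2 and at 187 CPM in KFs replicate 3. The split of the calls depended on the scaling. Of the genes called, 42.8% were higher in HFs with TMM scaling, 46.4% with DESeq2's size factors and 23% with library size alone, where the median log2 difference of all genes moved from -0.04 to -0.25. The lists below are read against these shares: each was described by how many of its measured genes passed in each direction and by its median log2 difference of HFs minus KFs, and no list was tested as a set.

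**Figure D2:**
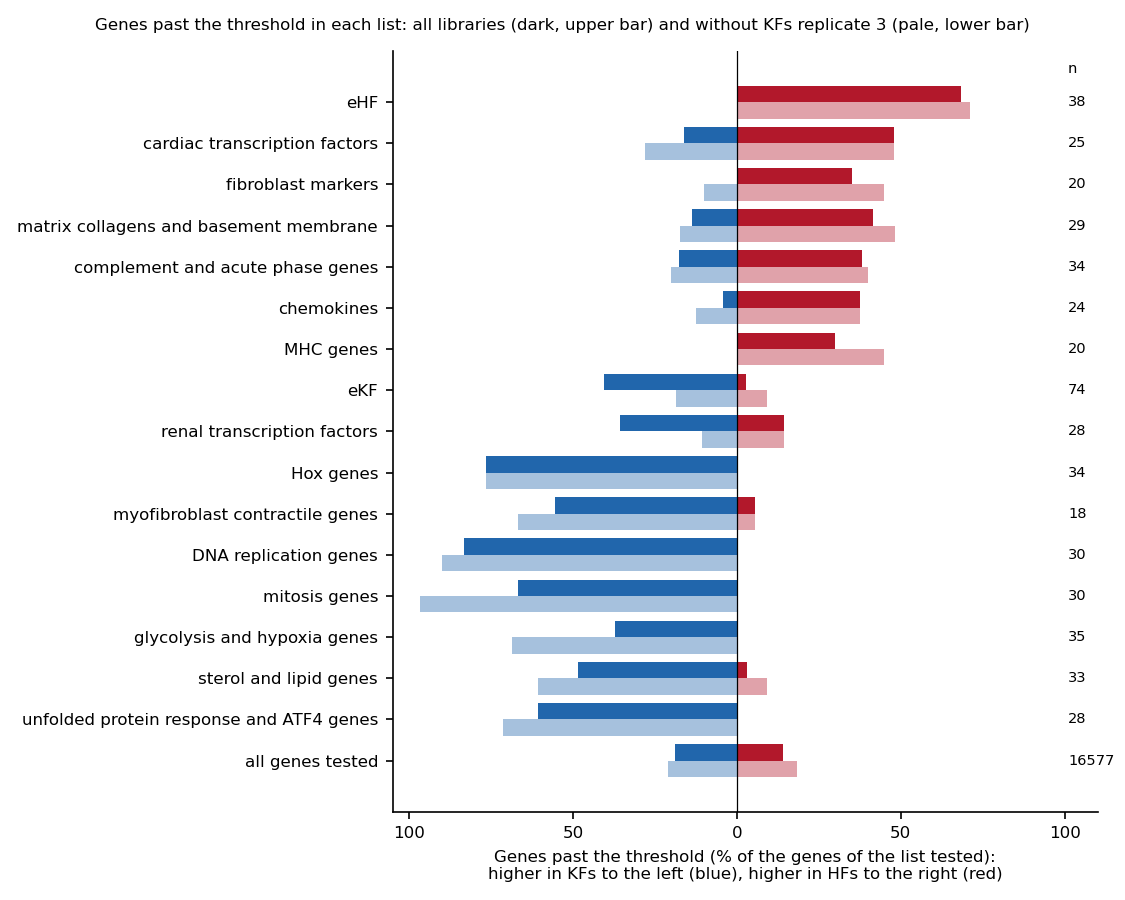
Share of each gene list that passed the test (% of the genes of the list tested, number tested at the right), higher in KFs to the left in blue and higher in HFs to the right in red, with all libraries (dark) and without KFs replicate 3 (pale). Heart-enriched, matrix, complement, chemokine and MHC genes lie to the right and Hox, DNA replication, mitosis and unfolded protein response genes to the left, and the eKF bar to the left shortens from 30 to 14 genes without KFs replicate 3.

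Genes enriched in cultured heart fibroblasts were higher in HFs. The heart-enriched list (eHF), which the study drew from microarrays of other cultured fibroblasts, had 38 genes measured here. Of these, 26 were higher in HFs and 0 higher in KFs, against 14.2% and 19% of all genes, with a median log2 difference of 2.87 (2.57 when genes absent from KFs are set to their lower bound). Without KFs replicate 3 the count was 27 and 0, and 25 genes were called in both fits. In culture 23 were higher in HFc and 1 higher in KFc, with a median of 2.38, where 15.1% of all genes were higher in HFc and 14% higher in KFc.

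Tbx20, a T-box factor needed for heart development (chr9:24718138-24774303, GRCm38), ranked first among the genes higher in HFs by the naming rule given below. It was at 372, 397 and 448 CPM in HFs and at 0, 0.0961 and 0.0401 CPM in KFs, so that the KFs libraries held at most 3 counts each. The level in HFs was at least 3610-fold higher with all libraries and at least 3730-fold higher without KFs replicate 3 (adjusted p = 1.64e-11 and 3.19e-12). The cultured cells showed the same separation, with 1177, 1223 and 1155 CPM in HFc and at most 0.13 CPM in KFc. The zinc finger factor Gata4 (chr14:63198922-63271692) was at 69.6, 62.6 and 59.3 CPM in HFs and at 0.0404, 0.128 and 0 CPM in KFs, a log2 difference of 9.91 (SE 0.36, adjusted p = 1.14e-09) and of 9.42 without KFs replicate 3. Hand2, a bHLH factor of the developing heart and limb, was at 40.1, 37.3 and 41.7 CPM in HFs and 0.849, 0.577 and 0.521 CPM in KFs, a log2 difference of 5.93 (SE 0.30, adjusted p = 4.02e-09) and of 5.83 without KFs replicate 3. For all 3 factors the HFs libraries lay close together and far above every KFs library.

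Among 25 cardiac transcription factors measured, 12 were higher in HFs and 4 higher in KFs with all libraries, and 12 and 7 without KFs replicate 3 (median 0.71 and 0.55). The epicardial factors Tcf21 and Tbx18 were both higher in HFs. Tcf21 was at 67.2, 84.9 and 88.5 CPM in HFs and 4.25, 1.41 and 0.12 CPM in KFs, and Tbx18 at 115, 103 and 118 CPM in HFs and 26.8, 40.9 and 14.4 CPM in KFs (log2 differences 5.39 and 2.03, and 4.88 and 1.74 without KFs replicate 3). Tbx5, another T-box factor of the heart and forelimb, was at 2.29, 2.69 and 4.03 CPM in HFs and within 3 counts of 0 in every KFs library, at least 26.6-fold and 27.6-fold higher in HFs. Sox9, a factor of cartilage and of many progenitor cells, was at 171, 192 and 216 CPM in HFs and 24.8, 33.9 and 79.0 CPM in KFs (2.07 and 2.73). Not every member of this list leaned to the heart. Wt1, which acts in both the epicardium and the kidney, was at 2.83, 3.22 and 4.33 CPM in HFs and 50.6, 39.8 and 40.7 CPM in KFs (log2 difference -3.65, SE 0.28, adjusted p = 3.5e-07, and -3.68 without KFs replicate 3). Zfpm1, a cofactor of GATA factors, was also higher in KFs, by 1.35 on the log2 scale in both fits. Gata6, a close relative of Gata4, was at 32.3 to 37.7 CPM in HFs and 14.6 to 33.8 CPM in KFs and did not pass (adjusted p = 0.0672, and 0.154 without KFs replicate 3).

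A further set of genes was named by the size of the difference alone. The rule asked for a protein-coding gene called in both fits, with no overlap between the 6 libraries and a mean of at least 5 CPM in the higher group, and took the 12 largest differences in each direction out of 1608 such genes higher in HFs and 2069 higher in KFs. The HFs side of this selection held Tbx20, Gata4 and Hand2 and several genes of the matrix and cell surface. Adamtsl3, a secreted matrix protein related to the ADAMTS proteases, was at 248, 254 and 181 CPM in HFs and 2.43, 1.76 and 3.77 CPM in KFs (log2 differences 6.43 and 6.79). Its relative Adamtsl2 was at 52.4, 126 and 137 CPM in HFs and 0.849, 0.128 and 0.441 CPM in KFs (7.85 and 7.86). Both genes were detected in every HFs library and at low levels in KFs. Comp, cartilage oligomeric matrix protein, was at 13.9, 19.4 and 25.4 CPM in HFs and 0.202, 0.256 and 0.0401 CPM in KFs (6.79, SE 0.51, adjusted p = 2.69e-07, and 6.39 without KFs replicate 3). In culture Comp did not separate the organs, at a mean of 1.85 CPM in HFc and 1.95 CPM in KFc, and its organ difference after transplantation exceeded that in culture by 6.88 on the log2 scale (adjusted p = 1.19e-05). Pdlim3, a muscle LIM protein, was at 23.9, 33.9 and 28.4 CPM in HFs and within 3 counts of 0 in KFs, at least 255-fold and 264-fold higher. Cdh19, a cadherin known from Schwann cells, was at 9.20, 8.86 and 10.8 CPM in HFs and at least 85.3-fold and 88.3-fold lower in KFs. Trf, which encodes the iron carrier transferrin, was at 112, 217 and 204 CPM in HFs and 1.94, 3.27 and 4.25 CPM in KFs, and the chloride channel accessory gene Clca3a1 at 271, 357 and 869 CPM and 10.6, 3.78 and 13.3 CPM (5.82 and 6.09 for Trf, 5.77 and 6.15 for Clca3a1). The remaining members were Bmx, at least 52.0-fold and 53.9-fold higher in HFs, and Fxyd6 (5.94 and 5.43).

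**Figure D3:**
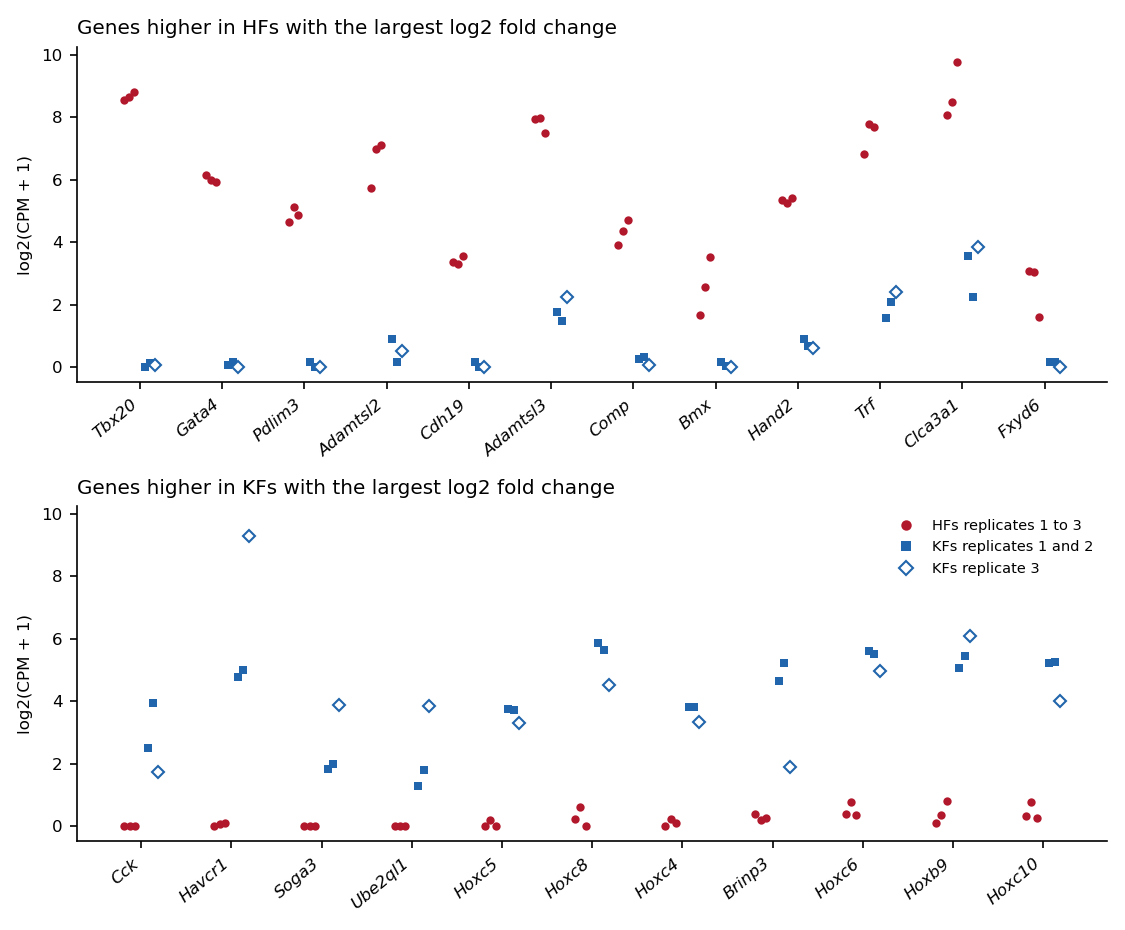
Genes with the largest log2 fold change in each direction by the naming rule (12 higher in HFs and 11 of the 12 higher in KFs), as log2(CPM + 1) in each library, with red circles for HFs, filled blue squares for KFs replicates 1 and 2 and open diamonds for KFs replicate 3. In the upper panel every HFs library lies above every KFs library, Tbx20 being highest over KFs at 372 to 448 CPM, and in the lower panel Havcr1 rises in KFs replicate 3, to 628 CPM.

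On the KFs side 6 of the 12 were Hox genes, described further on. Cck, the gene of the peptide cholecystokinin, was at 0 in every HFs library and at 4.61, 14.2 and 2.29 CPM in KFs, at least 49.5-fold higher in KFs and at least 66.1-fold without KFs replicate 3. In KFc it stood at a mean of 215 CPM. Havcr1, known as kidney injury molecule and a marker of damaged proximal tubule cells, was at 0, 0.0441 and 0.0759 CPM in HFs and at 26.3, 30.7 and 628 CPM in KFs. Its bound was 1610-fold with all libraries and 200-fold without KFs replicate 3, so that this 1 library set most of the larger value. Soga3 and Ube2ql1 were absent from HFs and at least 45.0-fold and 40.7-fold higher in KFs, or 19.3-fold and 13.9-fold without KFs replicate 3. Brinp3 was lowest in replicate 3 among the KFs libraries, at 23.8, 36.6 and 2.69 CPM, and was at 0.132 to 0.301 CPM in HFs (log2 differences -6.68 and -7.19). For these genes the groups did not overlap, but the level in KFs replicate 3 was not that of the other 2 KFs libraries.

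The kidney-enriched list (eKF), drawn by the study from the same microarrays, behaved differently from the heart list. Of 74 genes measured, 30 were higher in KFs and 2 higher in HFs with all libraries, with a median log2 difference of -1.66. Without KFs replicate 3, 14 of 76 were higher in KFs and 7 higher in HFs, and the median was 0.37. The count of 30 fell to 18 without HFs replicate 2 and to 17 without HFs replicate 3. In culture 42 of the 74 were higher in KFc and 3 higher in HFc, with a median of -3.01. The summed level of the whole list was 331 and 407 CPM in KFs replicates 1 and 2, 2170 CPM in KFs replicate 3 and 286 to 566 CPM in HFs, against 1110 to 1200 CPM in KFc and 203 to 217 CPM in HFc. The epithelial markers moved with it: Krt8, a keratin of simple epithelia, was at 4.29 and 1.31 CPM in KFs replicates 1 and 2, 70.2 CPM in replicate 3 and 1.56 to 3.08 CPM in HFs. The part of epithelial RNA in the eKF values was not tested.

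Members of the eKF list that were higher in KFs in both fits included Havcr1, Hoxc5 and Cck, and also Pmaip1, Mmd and Rgs16. Pmaip1, a p53 target that promotes cell death, was at 15.4, 18 and 12.8 CPM in HFs and 50.2, 65.3 and 35.7 CPM in KFs (log2 difference -1.71 with all libraries and -1.90 without KFs replicate 3). Rgs16, a regulator of G protein signalling, was at 17.2, 10.7 and 9.11 CPM in HFs and 47.3, 59.1 and 39.5 CPM in KFs (-1.99 and -2.11). Itga3, the integrin alpha 3 chain of a laminin receptor, passed in both fits, but the size of its difference depended on 1 library: it was at 4.63, 7.54 and 4.14 CPM in HFs and 12.1, 8.49 and 175 CPM in KFs, a log2 difference of -3.58 with all libraries and -0.90 without KFs replicate 3. Lcn2, which encodes neutrophil gelatinase-associated lipocalin and is on the eKF list, was higher in HFs: 135, 216 and 385 CPM against 4.49, 4.62 and 51.5 CPM in KFs (3.61, adjusted p = 0.00144, and 5.77, adjusted p = 8.54e-08, without KFs replicate 3). In culture Lcn2 was near 0 in both organs, at means of 0.579 CPM in HFc and 0.0359 CPM in KFc.

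Renal transcription factors followed the same library. Of 28 measured, 10 were higher in KFs and 4 higher in HFs with all libraries, and 3 and 4 without KFs replicate 3. Leaving out HFs replicate 1 lowered the 10 to 6, and leaving out HFs replicate 2 or KFs replicate 2 lowered the 4 to 2. Pax8, a paired-box factor of the nephron (chr2:24420560-24475599), was at 0.902, 3.97 and 1.67 CPM in HFs and 6.27, 3.56 and 109 CPM in KFs, a log2 difference of -4.16 (SE 1.04, adjusted p = 0.00777) with all libraries and -1.13 (adjusted p = 0.0627) without KFs replicate 3. Its relative Pax2 likewise passed with all libraries and not without KFs replicate 3, where it was at 46.5 CPM against at most 2.56 CPM in the other 5. Called in both fits and higher in KFs were, among others, Irx1, an Iroquois factor, at 3.56, 5.80 and 36.8 CPM in KFs and 0.0601 to 0.661 CPM in HFs, and Emx2, a homeobox gene of the urogenital system, at 16.8, 14.8 and 31.7 CPM against 4.37 to 8.33 CPM. Higher in HFs in both fits was Mecom, a zinc finger regulator, at 89.6, 87.1 and 84.1 CPM in HFs and 13.5, 12.5 and 7.94 CPM in KFs (log2 difference 2.94, SE 0.17, adjusted p = 1.69e-08, and 2.75 without KFs replicate 3).

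The Hox genes were higher in KFs with few exceptions. Of 34 measured, 26 were higher in KFs and 0 higher in HFs, in the fit with all libraries as in the fit without KFs replicate 3, and the count lay between 25 and 27 under each of 17 other settings. In 27 of the 34 no HFs library reached the level of any KFs library, against 19.1% of all genes. The median log2 difference was -4.69 with all libraries and -4.24 without KFs replicate 3, and in culture, where 28 were higher in KFc and 0 higher in HFc, it was -6.56. Hoxb9, Hoxc8 and Hoxc6 had the highest mean levels in KFs. Hoxc8 (chr15:102990607-102994111) was at 0.18, 0.529 and 0 CPM in HFs and 57.7, 48.4 and 22.0 CPM in KFs, a log2 difference of -7.51 (SE 0.53, adjusted p = 5.37e-07) and -7.81 without KFs replicate 3. Hoxc6 was at 0.301, 0.705 and 0.266 CPM in HFs and 47.8, 44.5 and 30.2 CPM in KFs, and Hoxc10 at 0.24, 0.705 and 0.19 CPM and 36.1, 36.9 and 15.1 CPM (-6.56 and -6.73 for Hoxc6, -6.25 and -6.55 for Hoxc10). Hoxc5 was within 3 counts of 0 in HFs and at 12.5, 12.1 and 8.94 CPM in KFs, at least 78.6-fold and 86.5-fold higher.

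KFs replicate 3 differed from the other 2 KFs libraries in which cluster it favoured. All Hoxc genes named above were lower in it. Genes of the Hoxb cluster were higher in it: Hoxb6 was at 13.0, 15.5 and 55.1 CPM in KFs against 0.683 to 1.15 CPM in HFs, Hoxb5 at 7.72, 6.15 and 32.4 CPM against 0.0882 to 0.481 CPM, and Hoxb9 at 32.6, 42.4 and 66.5 CPM against 0.0601 to 0.759 CPM. Hoxa3 and Hoxa6 lay close together in all 3 KFs libraries, Hoxa3 at 27.4, 31.0 and 25.6 CPM against 0.456 to 0.529 CPM in HFs and Hoxa6 at 15.5, 15.3 and 14.7 CPM against 0.0759 to 0.361 CPM. Hoxa11 and Hoxc11, which sit near the posterior end of their clusters, were at 0 in all HFs libraries and at 0.401 to 2.37 CPM in KFs, at least 13.2-fold and 7.2-fold higher, and 14.2-fold and 9.39-fold without KFs replicate 3. Hoxd8 was at 4.69, 6.66 and 5.77 CPM in HFs and 3.56, 2.95 and 6.05 CPM in KFs and did not pass (adjusted p = 0.489, and 0.172 without KFs replicate 3).

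**Figure D4:**
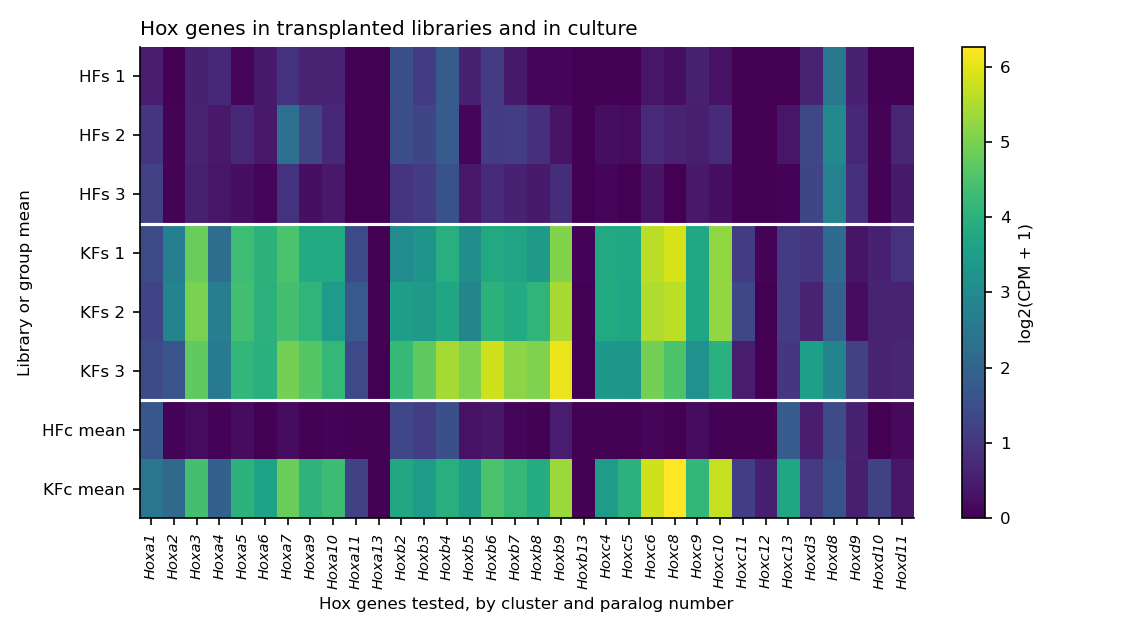
Level of the 34 Hox genes tested, as log2(CPM + 1), in the 3 HFs and 3 KFs libraries and as the mean of the 3 libraries of each cultured group. By the test, 26 of the 34 were higher in KFs than in HFs and 28 were higher in KFc than in HFc. The KFs rows are nonetheless low for some genes, such as Hoxa11 and Hoxc11. Of the 6 transplanted libraries shown, KFs replicate 3 has the highest level of Hoxb6, at 55.1 CPM. Hoxd8 is at 2.95 to 6.66 CPM in all 6.

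Of 23 other factors of position measured, 6 were higher in HFs and 5 higher in KFs, and 5 and 7 without KFs replicate 3. The 5 fell to 3 without HFs replicate 1, HFs replicate 2 or KFs replicate 2. Pax3, a factor of the neural crest and muscle progenitors, was at 16.2, 16.4 and 17.2 CPM in HFs and 1.62, 1.96 and 0.922 CPM in KFs, and the homeobox gene Shox2, known from the sinoatrial node, at 10.9, 12.9 and 10.3 CPM and 1.54, 0.641 and 0.16 CPM (3.46 and 3.22 for Pax3, 3.87 and 3.42 for Shox2). En1, a homeobox gene of ventral skin and hindbrain, was higher in KFs, at 17.5, 18.1 and 9.94 CPM against 2.35, 1.06 and 1.82 CPM in HFs (-3.14 and -3.37).

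Among 20 fibroblast markers, 7 were higher in HFs and 0 higher in KFs, and 9 and 2 without KFs replicate 3 (median 0.93 and 0.69). Without KFs replicate 1 the 7 became 11. Fn1, the gene of fibronectin, was at 36210, 35240 and 23300 CPM in HFs and 8739, 8526 and 10420 CPM in KFs (log2 difference 1.77, SE 0.17, adjusted p = 2.52e-06, and 1.88 without KFs replicate 3). Dcn, the small proteoglycan decorin, was at 1470, 1651 and 1658 CPM in HFs and 528, 394 and 42.8 CPM in KFs (2.31 and 1.80). For Fn1 the 3 KFs libraries agreed, while for Dcn KFs replicate 3 lay well under the other 2. Col3a1, a chain of collagen III, was at 49300, 51690 and 33990 CPM in HFs and 34930, 22010 and 4259 CPM in KFs, and passed only without KFs replicate 3 (1.14, adjusted p = 0.0605, and 0.67, adjusted p = 0.00744).

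Contractile genes ran the other way. Myofibroblasts are fibroblasts that take up smooth muscle proteins and pull on the matrix. Of 18 of their contractile genes, 10 were higher in KFs and 1 higher in HFs with all libraries, and 12 and 1 without KFs replicate 3, and the 1 became 3 without KFs replicate 1, with medians of -0.82 and -1.11. In culture 13 were higher in KFc and 2 higher in HFc. Acta2, smooth muscle actin, was at 782, 565 and 376 CPM in HFs and 1093, 1416 and 654 CPM in KFs, a log2 difference of -0.88 that missed the threshold with all libraries (adjusted p = 0.0504) and of -1.11 that passed without KFs replicate 3 (adjusted p = 0.00878). The muscle genes Myh11, Actg2, Cnn1 and Des differed more. Myh11, smooth muscle myosin, was at 1.02, 4.41 and 4.86 CPM in HFs and 67.4, 88.9 and 9.66 CPM in KFs (-3.96 and -4.42), and Des, the intermediate filament desmin, at 6.07, 5.16 and 3.72 CPM and 67.1, 70.7 and 18.7 CPM (-3.40 and -3.79). The gamma actin Actg2 was at 0.835 to 4.45 CPM in HFs and 64.1, 116 and 9.74 CPM in KFs, and calponin, Cnn1, at 1.44 to 7.09 CPM and 41.9, 64.6 and 25.3 CPM. All 4 were lower in KFs replicate 3 than in the other KFs libraries and still above HFs. Synpo2, an actin-bundling protein, was the 1 gene of the list higher in HFs, at 46.9, 48.7 and 49.2 CPM against 18.6, 8.72 and 3.49 CPM. Myh11 and Des are also markers of mural cells, and the summed level of 10 mural markers was 249 to 286 CPM in HFs and 310, 311 and 146 CPM in KFs. The part of mural cells in the contractile genes was not tested.

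Genes of the matrix were mostly higher in HFs where they passed. Of 29 collagens and basement membrane genes, 12 were higher in HFs and 4 higher in KFs, and 14 and 5 without KFs replicate 3. The 4 dropped to 1 without HFs replicate 1 or HFs replicate 3. Col14a1, a collagen that binds along fibrils, was at 1092, 1169 and 808 CPM in HFs and 231, 90.5 and 37.4 CPM in KFs (log2 difference 3.10 and 2.68 without KFs replicate 3). The basement membrane chains Col4a5 and Col4a6, which lie head to head in the genome, were at 403 to 476 and 36.5 to 45.9 CPM in HFs and at 85.7 to 145 and 2.76 to 8.78 CPM in KFs. Among the minor or variable collagens the reverse held for Col12a1, at 1559, 1340 and 1296 CPM in HFs and 4755, 4559 and 733 CPM in KFs. Its call was lost when any 1 of HFs replicates 1 to 3 or KFs replicates 1 and 2 was left out, and without KFs replicate 3 it stood at -1.72 (adjusted p = 5.45e-09).

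Of 28 proteoglycans and matricellular genes, 10 were higher in HFs and 4 higher in KFs, and 10 and 8 without KFs replicate 3. Without KFs replicate 1 the 10 became 18. Ccn5, a matricellular protein of the CCN family, was at 261, 316 and 389 CPM in HFs and 12.4, 2.60 and 8.10 CPM in KFs (log2 difference 5.40, SE 0.38, adjusted p = 1.14e-07, and 5.47 without KFs replicate 3). The leucine-rich proteoglycans Prelp and Fmod were at 409 to 536 and 72.6 to 141 CPM in HFs and at 3.05 to 20.9 and 0.441 to 18 CPM in KFs. For both, KFs replicate 1 was the highest of the KFs libraries. Spp1, osteopontin, was higher in KFs, at 1280, 3697 and 8288 CPM against 343, 286 and 242 CPM in HFs (-3.93, adjusted p = 1.35e-05, and -3.08 without KFs replicate 3).

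Matrix remodelling genes gave 11 of 27 higher in HFs and 3 higher in KFs, and 12 and 5 without KFs replicate 3. The 3 became 1 without HFs replicate 2 and 6 without KFs replicate 2. Mmp16, a membrane-bound protease, was at 43.4, 48.9 and 38.6 CPM in HFs and 7.12, 6.79 and 5.41 CPM in KFs (log2 difference 2.76, SE 0.13, adjusted p = 2.76e-09, and 2.66 without KFs replicate 3). Mmp3, stromelysin, was at 305, 788 and 1167 CPM in HFs and 85.8, 66.3 and 0.762 CPM in KFs (3.89 and 3.32). The protease that cuts aggrecan, Adamts5, was at 438 to 768 CPM in HFs and 135 to 271 CPM in KFs. The stromelysin relative Mmp10 went the other way, at 0.0759 to 0.661 CPM in HFs and 1.88 to 5.22 CPM in KFs.

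Laminins and integrins, the basement membrane proteins and their cell surface receptors, gave 11 of 29 higher in HFs and 7 higher in KFs, and 13 and 4 without KFs replicate 3. Itga4, the alpha 4 integrin that binds fibronectin and is on the eHF list, was at 45.7, 60.6 and 54.9 CPM in HFs and 15.7, 12.1 and 15.3 CPM in KFs (log2 difference 1.90, SE 0.13, adjusted p = 1.14e-07, and 1.97 without KFs replicate 3). Its organ difference in culture was larger, with means of 221 CPM in HFc and 13.5 CPM in KFc, and the difference between the 2 contrasts was -2.13 (adjusted p = 4.95e-06). Itga5, the alpha 5 chain of the classical fibronectin receptor, was higher in KFs, at 294, 735 and 477 CPM against 160, 122 and 139 CPM in HFs (-1.84 and -1.86). The laminin chains Lama4 and Lamc1 were higher in HFs, at 705 to 905 and 1019 to 1235 CPM against 145 to 456 and 364 to 685 CPM in KFs. Lamb3, an epithelial laminin chain, had opposite signs in the 2 fits, as given below.

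Signalling genes passed in both directions. Of 28 Wnt ligands and modulators, 4 were higher in HFs and 10 higher in KFs, and of 29 without KFs replicate 3, 6 and 8. The 4 became 7 without KFs replicate 1 and 2 without KFs replicate 2. The secreted Wnt inhibitor Frzb was at 129, 139 and 125 CPM in HFs and 8.89, 10.4 and 3.49 CPM in KFs (log2 difference 4.10, SE 0.27, adjusted p = 6.46e-08, and 3.77 without KFs replicate 3), and Nkd2, a feedback inhibitor inside the cell, at 38.4 to 59.9 CPM and 0.802 to 5.5 CPM (4.08 and 3.66). The ligands that passed were higher in KFs. Wnt2 was at 0.132 to 0.782 CPM in HFs and 3.59 to 5.41 CPM in KFs, and Wnt5a at 26.6 to 28.7 CPM and 32.0, 73.0 and 45.1 CPM (-3.68 and -3.58 for Wnt2, -0.86 and -0.91 for Wnt5a). Wnt7b, a ligand of kidney collecting duct and on the eKF list, was within 3 counts of 0 in HFs and at 0.687, 1.15 and 17.9 CPM in KFs, at least 46.3-fold higher with all libraries and 6.48-fold without KFs replicate 3.

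BMP and TGF-beta pathway genes gave 13 of 38 higher in HFs and 7 higher in KFs, and 13 and 11 of 39 without KFs replicate 3. Smad6, an inhibitor that BMP signals switch on, was at 22.4, 26.5 and 25.3 CPM in HFs and 7.08, 6.54 and 4.09 CPM in KFs (log2 difference 2.07 and 1.88). The ligands Bmp4 and Bmp6 were at 9.74 to 19.9 and 14.2 to 24.7 CPM in HFs, and in KFs at 0.404, 0.353 and 8.50 CPM and at 2.02, 0.929 and 7.34 CPM. For both ligands KFs replicate 3 lay between the groups, so that the log2 difference of Bmp4 was 2.15 with all libraries and 5.16 without it, and its call with all libraries was lost without HFs replicate 2, KFs replicate 1 or KFs replicate 2. The secreted BMP antagonist Grem1 was higher in KFs, at 37.0, 34.2 and 7.58 CPM against 0.902, 0.705 and 1.59 CPM in HFs (-4.58, and -4.99 without KFs replicate 3). Tgfbr1, a TGF-beta receptor, was also higher in KFs, at 153, 150 and 110 CPM against 57.8 to 71.4 CPM.

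Of 13 IGF pathway genes, 5 were higher in HFs and 1 higher in KFs, and 6 and 3 without KFs replicate 3. Igfbp7 was at 961, 1049 and 895 CPM in HFs and 375, 340 and 352 CPM in KFs, a log2 difference of 1.45 (SE 0.07, adjusted p = 4.32e-09) with and without KFs replicate 3. Igfbp5 was at 229, 839 and 695 CPM in HFs and 13.9, 7.44 and 21.9 CPM in KFs (5.36 and 5.81). Both genes bind insulin-like growth factors. Neither was called in culture, where Igfbp7 was at means of 596 CPM in HFc and 526 CPM in KFc and Igfbp5 at 61.6 and 64.1 CPM, and the difference between the contrasts passed for both (adjusted p = 3.19e-06 and 6.78e-05). The growth factor Igf1 was at 193, 242 and 251 CPM in HFs and 80.2, 15.5 and 10.8 CPM in KFs. Igfbp6 was higher in KFs, at 30.0, 16.5 and 10.9 CPM against 3.49 to 5.65 CPM.

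Growth and angiogenic factors gave 7 of 29 higher in HFs and 10 higher in KFs, and 8 and 10 without KFs replicate 3. The 10 became 6 without HFs replicate 3. Vegfd, a lymphatic growth factor, was at 222, 273 and 302 CPM in HFs and 82.8, 26.2 and 5.69 CPM in KFs (log2 differences 2.80 and 2.30). Higher in KFs were Pdgfc, at 31.8, 37.0 and 47.0 CPM against 3.91 to 10.8 CPM, and Fgf10, at 5.5, 2.5 and 1.68 CPM against 0.0441 to 0.418 CPM. Of 43 axon guidance genes, 7 were higher in HFs and 9 higher in KFs, and 12 and 11 without KFs replicate 3, against 18.1% and 20.7% of all genes without that library. The repellent Sema3a was at 1.02, 2.25 and 2.13 CPM in HFs and 25.5, 35.8 and 32.8 CPM in KFs, a log2 difference of -4.08 (SE 0.23, adjusted p = 1.69e-08, and -4.02 without KFs replicate 3) that exceeded the difference in culture by 2.68 in size (adjusted p = 3.18e-05). Efnb2, an ephrin ligand, was at 13.3 to 29.2 CPM in HFs and 102 to 115 CPM in KFs, with no such difference in culture, where the means were 71.5 and 72.3 CPM.

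Complement genes passed more often in the direction of HFs. Of 34 complement and acute phase genes, 13 were higher in HFs and 6 higher in KFs, with a median log2 difference of 1.00, and 14 and 7 of 35 without KFs replicate 3, with a median of 0.52. The 6 became 2 without HFs replicate 2, 3 without HFs replicate 3 and 4 without HFs replicate 1 or KFs replicate 2. Cfi, a protease that limits complement activation, was at 21.2, 24.2 and 24.4 CPM in HFs and 0.162, 0 and 1.56 CPM in KFs (log2 difference 5.37, and 8.25 without KFs replicate 3). Ptgs2, the inducible cyclooxygenase, was higher in KFs, at 216, 347 and 122 CPM against 76.8, 51.0 and 37.9 CPM (-2.05 and -2.34).

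Of 24 chemokines, 9 were higher in HFs and 1 higher in KFs, and 9 and 3 without KFs replicate 3. The 9 stayed between 8 and 9 when any 1 library was left out, while the count higher in KFs ranged from 0 to 4. Cxcl12, the ligand of CXCR4, was at 867, 1054 and 1229 CPM in HFs and 401, 202 and 34.5 CPM in KFs (log2 difference 2.30 and 1.81), and Cx3cl1, fractalkine, at 42.2, 49.9 and 42.9 CPM and 9.50, 7.18 and 14.4 CPM (2.12 and 2.45). Ccl5 was at 6.85, 15.4 and 30.8 CPM in HFs and 1.62, 0.609 and 0.0802 CPM in KFs. Of 20 MHC genes, 6 were higher in HFs and 0 higher in KFs, and 9 and 0 without KFs replicate 3. The class I genes H2-D1 and H2-K1 were at 284 to 357 and 223 to 316 CPM in HFs and at 47.6 to 98.0 and 81.0 to 130 CPM in KFs. These 2 share sequence, and reads may be divided between them. Interferon-stimulated genes gave no stable count: 6 of 46 were higher in HFs and 1 higher in KFs with all libraries, and the 6 became 3 without KFs replicate 3, without HFs replicate 1, 2 or 3, 0 without KFs replicate 2 and 23 without KFs replicate 1. Leukocyte markers lay at sums of 108 to 183 CPM in HFs and 178 and 142 CPM in KFs replicates 1 and 2, and at 39.2 CPM in replicate 3. Their part in the chemokine values was not tested.

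Genes of DNA replication were higher in KFs. Of 30 measured, 25 were higher in KFs and 0 higher in HFs, and 27 and 0 without KFs replicate 3, with medians of -1.08 and -1.25. The count stayed at 19 or above when any 1 library was left out, 19 being the value without KFs replicate 2. Mcm3, a subunit of the helicase that opens DNA at origins, was at 16.5, 12.6 and 20.6 CPM in HFs and 41.1, 59.3 and 33.6 CPM in KFs (log2 difference -1.43, SE 0.22, adjusted p = 0.000228, and -1.58 without KFs replicate 3), and its partner Mcm2 at 14.3, 8.11 and 11.2 CPM and 30.0, 46.4 and 27.7 CPM (-1.64 and -1.77). Rrm2, the regulated subunit of ribonucleotide reductase, was at 8.54, 6.96 and 9.11 CPM and 25.0, 55.9 and 23.7 CPM (-2.09 and -2.29). For each of these genes every KFs library lay above every HFs library and KFs replicate 2 was the highest.

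In culture the order was the other way round. There, 25 of the 30 replication genes were higher in HFc and 0 higher in KFc, with a median of 0.93, and the change of the organ difference between culture and transplant passed the test for 27 of 30 genes, against 26.2% of all genes, and for 26 of them in both fits. Mcm3 was at means of 44.0 CPM in HFc and 17.5 CPM in KFc, and the 2 contrasts differed by -2.76 (adjusted p = 4.1e-05). The mitosis genes showed the same turn: in culture all 30 were higher in HFc, with a median of 1.68, and all 30 passed the test of the change. Between the transplanted groups, however, their calls depended on single libraries. With all libraries 20 of 30 were higher in KFs and 0 higher in HFs (median -0.93), without KFs replicate 3 the count was 29 (median -1.13), and it was 3 without HFs replicate 2, 5 without HFs replicate 3 and 2 without KFs replicate 2. Bub1, a spindle checkpoint kinase, was at 6.19, 4.94 and 7.59 CPM in HFs and 15.9, 32.8 and 12.7 CPM in KFs (-1.71, adjusted p = 0.00391, and -1.95 without KFs replicate 3), against means of 13.5 CPM in HFc and 4.37 CPM in KFc. Mki67, the gene of the proliferation antigen Ki-67, was at 235, 164 and 222 CPM in HFs and 359, 574 and 253 CPM in KFs, a log2 difference of -0.93 (adjusted p = 0.0262, and -1.16 without KFs replicate 3) that missed the threshold without HFs replicate 2, HFs replicate 3 or KFs replicate 2.

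**Figure D5:**
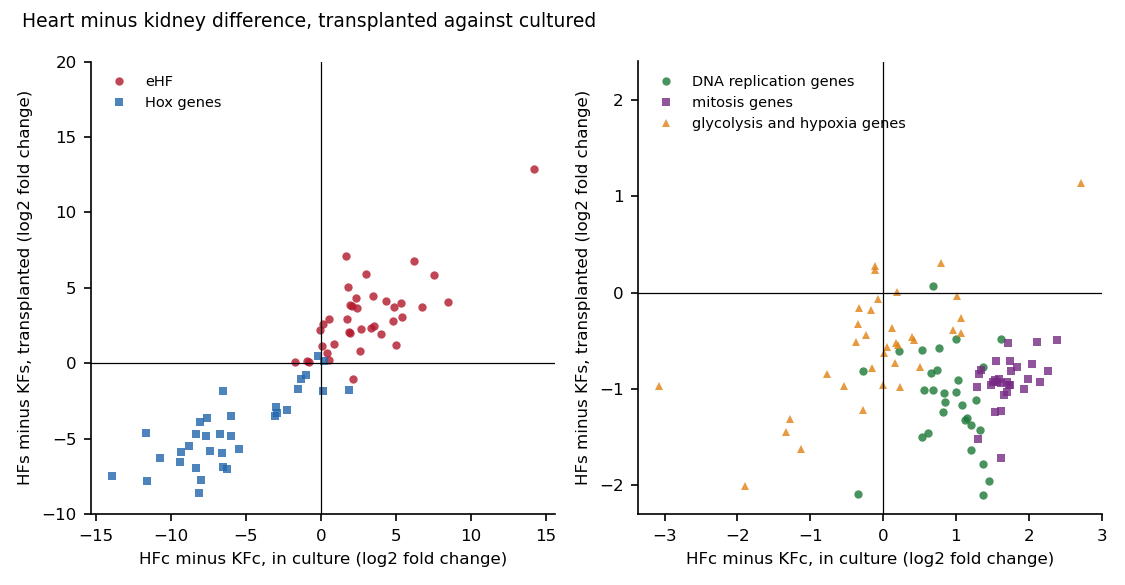
Organ difference of each gene (log2 fold change) in culture, HFc minus KFc, on the horizontal axis and after transplantation, HFs minus KFs, on the vertical axis, for eHF and Hox genes on the left and for DNA replication, mitosis, and glycolysis and hypoxia genes on the right. The eHF and Hox genes lie mostly along the diagonal, and 30 of 30 mitosis genes lie to the right of 0 in culture and under 0 after transplantation.

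Many promoters of mitotic genes hold the cell cycle homology region, the short element TTTGAA through which repressor complexes act in resting cells. RefSeq windows of 250 bases before the gene start (GRCm38.p6) were found for 26 of the 30 mitosis genes. Counting both strands, 9 of their 27 windows (33.3%) held TTTGAA, against 16% of 32851 windows of all genes. The windows of Mki67, Top2a and Cdc20 are shown as well-known cell cycle genes out of the 9 windows that hold the motif, with TTTGAA, or TTCAAA where it lies on the other strand, in capitals.
Mki67 (chr7:135716380-135716629, minus strand): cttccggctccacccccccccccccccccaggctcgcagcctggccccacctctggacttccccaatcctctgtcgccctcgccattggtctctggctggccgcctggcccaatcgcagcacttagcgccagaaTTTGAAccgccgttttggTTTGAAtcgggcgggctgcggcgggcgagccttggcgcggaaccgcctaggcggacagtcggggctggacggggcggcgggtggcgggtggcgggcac
Top2a (chr11:99024190-99024439, minus strand): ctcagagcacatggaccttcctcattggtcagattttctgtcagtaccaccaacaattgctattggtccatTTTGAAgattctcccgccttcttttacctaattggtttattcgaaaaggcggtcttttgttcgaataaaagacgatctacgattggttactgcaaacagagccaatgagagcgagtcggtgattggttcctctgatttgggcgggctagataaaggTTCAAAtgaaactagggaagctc
Cdc20 (chr4:118437344-118437593, minus strand): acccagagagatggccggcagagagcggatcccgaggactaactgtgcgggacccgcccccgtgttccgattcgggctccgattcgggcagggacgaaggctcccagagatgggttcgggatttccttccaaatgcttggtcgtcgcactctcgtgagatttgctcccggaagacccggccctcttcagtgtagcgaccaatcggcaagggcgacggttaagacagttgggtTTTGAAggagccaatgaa
A match is a stretch of these letters and not a shown site of binding. Top2a, which untangles DNA in dividing cells, was at 95.3, 69.1 and 96.0 CPM in HFs and 143, 232 and 111 CPM in KFs, and at means of 147 CPM in HFc and 49.0 CPM in KFc. Cdc20, an activator of the anaphase-promoting complex, was at 11.8, 8.99 and 7.02 CPM and 14.4, 27.0 and 12.4 CPM, and at means of 24.8 and 8.84 CPM in culture. For both, the change of the organ difference between culture and transplant passed the test (-2.49, adjusted p = 0.000584, and -2.45, adjusted p = 0.000759). The call between HFs and KFs was lost for both when HFs replicate 2 or KFs replicate 2 was left out. It was also lost without HFs replicate 1 for Top2a and without HFs replicate 3 for Cdc20.

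Genes of glycolysis and of the response to low oxygen were higher in KFs where they passed. Of 35 measured, 13 were higher in KFs and 0 higher in HFs with all libraries, and 24 and 0 without KFs replicate 3, with medians of -0.51 and -0.73. In culture 6 were higher in HFc and 5 higher in KFc, near the shares of all genes (15.1% and 14%). The hypoxia-inducible factors bind a core of ACGTG in the promoters of such genes. RefSeq windows were found for 31 of the 35 genes, and 23 of their 48 windows (47.9%) held ACGTG on either strand, against 16.6% of 32851 windows of all genes. The list was chosen as genes of glycolysis and the low oxygen response. The share covers members that passed and members that did not, so it does not bear on the difference between HFs and KFs. Windows of the same gene can overlap, as those of Aldoa do. The windows of 4 genes called in both fits are shown, picked from windows that hold the motif. ACGTG, or CACGT where it lies on the other strand, is in capitals, and the 2 overlap in CACGTG.
Hk2 (chr6:82774455-82774704, minus strand): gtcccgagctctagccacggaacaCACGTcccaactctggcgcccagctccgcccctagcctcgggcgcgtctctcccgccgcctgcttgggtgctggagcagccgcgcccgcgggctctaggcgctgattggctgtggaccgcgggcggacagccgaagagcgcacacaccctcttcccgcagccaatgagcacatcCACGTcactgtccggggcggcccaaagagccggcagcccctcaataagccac
Ldha (chr7:46845554-46845803, plus strand): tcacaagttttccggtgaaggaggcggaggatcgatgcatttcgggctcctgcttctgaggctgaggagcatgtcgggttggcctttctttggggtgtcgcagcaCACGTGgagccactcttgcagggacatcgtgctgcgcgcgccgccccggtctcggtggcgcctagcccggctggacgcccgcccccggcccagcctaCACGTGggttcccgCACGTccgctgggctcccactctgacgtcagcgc
Slc2a1 (chr4:119108495-119108744, plus strand): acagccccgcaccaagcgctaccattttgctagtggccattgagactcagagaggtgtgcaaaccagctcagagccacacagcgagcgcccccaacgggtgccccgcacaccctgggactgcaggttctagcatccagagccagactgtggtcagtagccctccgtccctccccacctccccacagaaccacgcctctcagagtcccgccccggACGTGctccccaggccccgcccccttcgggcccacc
Slc16a3 (chr11:120948817-120949066, plus strand): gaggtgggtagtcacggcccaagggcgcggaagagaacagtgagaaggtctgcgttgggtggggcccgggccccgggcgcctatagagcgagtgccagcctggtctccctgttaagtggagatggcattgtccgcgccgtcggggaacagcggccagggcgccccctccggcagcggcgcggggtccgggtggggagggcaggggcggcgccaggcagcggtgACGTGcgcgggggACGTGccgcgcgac
Hexokinase 2, Hk2, which traps glucose in the cell, was at 60.1, 59.8 and 78.7 CPM in HFs and 181, 319 and 297 CPM in KFs (log2 difference -2.0, SE 0.21, adjusted p = 7.53e-06, and -1.90 without KFs replicate 3). Hk2 separated the organs in culture too, at means of 36.0 CPM in HFc and 134 CPM in KFc. The glucose carrier Slc2a1 was at 38.4, 52.3 and 71.6 CPM in HFs and 135, 244 and 123 CPM in KFs (-1.63 and -1.79), and the lactate carrier Slc16a3 at 39.9, 45.6 and 56.6 CPM and 107, 204 and 77.0 CPM (-1.45 and -1.70). In all 3 genes no HFs library reached a KFs library. Ldha, lactate dehydrogenase, was at 240, 265 and 344 CPM in HFs and 497, 797 and 382 CPM in KFs (-0.98, adjusted p = 0.00279, and -1.18 without KFs replicate 3), while in culture the means were 286 and 244 CPM. Pgk1, another enzyme of the pathway, was at 276 to 388 CPM in HFs and 464, 626 and 300 CPM in KFs and passed only without KFs replicate 3. Vegfa, the angiogenic target of the same factors, was at 265, 454 and 662 CPM in HFs and 380, 530 and 267 CPM in KFs and did not pass (adjusted p = 0.558, and 0.941 without KFs replicate 3).

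Where sterol and lipid genes passed, most were higher in KFs. Of 33 measured, 16 were higher in KFs and 1 higher in HFs, and 20 and 3 without KFs replicate 3. The 16 became 10 without KFs replicate 2. In culture 18 were higher in HFc and 5 higher in KFc, and for 25 of the 33 the organ difference changed between culture and transplant. Fdps, an enzyme of the mevalonate pathway, was at 7.82, 6.88 and 4.40 CPM in HFs and 19.7, 33.5 and 14.8 CPM in KFs (log2 difference -1.85 and -2.08), against means of 111 CPM in HFc and 53.3 CPM in KFc. Sqle, which epoxidises squalene, was at 9.02, 7.58 and 5.32 CPM in HFs and 19.3, 34.2 and 14.3 CPM in KFs (-1.64 and -1.88). Of 28 windows of 23 of these genes, 1 held TCACNCCAC, a core of the sterol response element, against 1.05% of all windows.

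Of 28 genes of the unfolded protein response and of the factor ATF4, 17 were higher in KFs and 0 higher in HFs, and 20 and 0 without KFs replicate 3, with medians of -0.61 and -0.58. In culture 3 were higher in HFc and 2 higher in KFc. The chaperone Hspa5 (BiP) was at 547, 541 and 624 CPM in HFs and 1278, 1128 and 772 CPM in KFs (log2 difference -0.89, SE 0.14, adjusted p = 0.000204, and -1.06 without KFs replicate 3). The serine synthesis enzyme Phgdh was at 7.51, 8.73 and 7.71 CPM in HFs and 19.3, 25.1 and 20.4 CPM in KFs (-1.44, SE 0.11, adjusted p = 3.23e-07, and -1.46 without KFs replicate 3), and asparagine synthetase, Asns, at 8.01 to 11.0 CPM and 20.2 to 26.9 CPM. No HFs library reached the lowest KFs library in any of the 3. Ddit3, which encodes the stress factor CHOP, was at 23.5 to 45.5 CPM in HFs and 24.8 to 43.2 CPM in KFs and did not pass (adjusted p = 0.846, and 0.843 without KFs replicate 3).

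Immediate early genes, which cells switch on within minutes of a stimulus, gave 1 of 24 higher in HFs and 7 higher in KFs, and 0 and 8 without KFs replicate 3. Without KFs replicate 1 the 1 became 7. Myc was at 19.3, 14.1 and 20.2 CPM in HFs and 35.0, 36.5 and 37.1 CPM in KFs (log2 difference -1.02, SE 0.14, adjusted p = 6.27e-05, and -0.99 without KFs replicate 3). Genes regulated by p53 and Cdkn genes were even, at 5 of 20 in each direction in both fits, and 8 were higher in KFs without KFs replicate 1. Fas, a death receptor, was higher in HFs at 32.2 to 38.6 CPM against 12 to 18.1 CPM, and Plk2 was higher in KFs at 94.6 to 148 CPM against 26.1 to 47.2 CPM.

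Markers of cell types other than fibroblasts also differed, in single libraries or single genes. Of 18 epithelial markers tested, 7 were higher in KFs and 0 higher in HFs, and without KFs replicate 3 it was 2 and 0 of 20: Krt19, at 0.485 to 0.721 CPM in HFs and 13.8, 15.7 and 8.62 CPM in KFs, and Krt20, at 0 to 0.264 CPM and 3.11, 2.37 and 6.09 CPM. The 7 became 4 without HFs replicate 1, 11 without KFs replicate 1 and 12 without KFs replicate 2. Of 24 proximal tubule markers, 13 were higher in HFs and 0 higher in KFs, and 9 and 0 without KFs replicate 3, but 2 without HFs replicate 2, 4 without KFs replicate 2 and 21 without HFs replicate 1 or HFs replicate 3. Slc34a1, a phosphate carrier of the proximal tubule, was at 16.2, 174 and 8.81 CPM in HFs and 14.8, 7.66 and 3.33 CPM in KFs, and at 0 in both cultured groups. Its call was lost without HFs replicate 2, KFs replicate 2 or KFs replicate 3. Of 14 endothelial markers, 3 were higher in HFs and 1 higher in KFs, and 4 and 1 without KFs replicate 3: Eng, a TGF-beta co-receptor, was at 165, 167 and 168 CPM in HFs and 31.7, 37.4 and 12.9 CPM in KFs, and Flt1, a VEGF receptor, was higher in KFs at 63.0 to 76.3 CPM against 21.3 to 36.6 CPM. In culture Eng was at means of 503 and 76.0 CPM. Of 19 markers of the loop, distal tubule and collecting duct, 4 were higher in HFs and 0 higher in KFs, and 6 and 0 of 20 without KFs replicate 3; the 4 became 7 without HFs replicate 1, 2 without HFs replicate 2 or 3 and 1 without KFs replicate 2. With all libraries and then without KFs replicate 3, the counts higher in HFs and in KFs were 2 and 2, then 2 and 1, of 7 podocyte markers, and 1 and 2 in both fits of 8 mural cell markers, with 4 higher in KFs without HFs replicate 1. They were 3 and 2, then 4 and 2, of 9 mesothelial and epicardial markers, and 1 and 0, then 3 and 0, of 6 Schwann and neural markers. Leukocyte markers gave 1 and 1 of 14, then 2 and 2 of 16, and without KFs replicate 1 the count higher in HFs was 3. Cardiomyocyte markers gave 0 and 0, then 2 and 0, of 5, with 2 higher in KFs without KFs replicate 2. Of 6 erythroid markers 0 passed in either fit, and 4 were higher in HFs without HFs replicate 2.

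The organ difference was compared directly between the transplanted and the cultured cells. Of the 2114 genes higher in HFs in both fits, 810 (38.3%) were also higher in HFc than in KFc and 149 (7.05%) were lower. Of the 2649 higher in KFs in both fits, 687 (25.9%) were also higher in KFc and 439 (16.6%) were lower. Of all genes tested, 15.1% were higher in HFc and 14% higher in KFc, so the last share is near that of all genes. The change of the organ difference passed the test for 4347 genes (26.2%) with all libraries and for 5962 (35.2%) without KFs replicate 3, with 4029 called in both. For 10 of the 38 eHF genes and 11 of the 34 Hox genes the change passed, which is near the share of all genes (26.2%). It passed for 27 of 30 DNA replication genes and 30 of 30 mitosis genes. The 2 contrasts share no library, but by the study's methods the cultured controls were leftover cells of the cultures that were transplanted. Pairing of transplanted with cultured libraries was not checked. Car2, a carbonic anhydrase, was among the largest changes: it was at 0 in all 3 HFc libraries and at 6.45 to 8.06 CPM in KFc, but at 2.41, 8.07 and 6.04 CPM in HFs and 3.60, 2.82 and 5.89 CPM in KFs.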

How the data were processed

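RNA from 18 cell samples was sequenced, and the authors estimated gene levels with RSEM, which ran Bowtie2 for the alignment. The deposited table held expected counts for 38924 genes, with no normalisation. The study's methods name GRCm38, while the submitters' processing notes list mm9. The counts carry no coordinates, so names and positions were taken from GENCODE M21 (GRCm38) through the gene identifiers, of which 37607 matched. Expected counts were rounded to whole numbers. Library totals in the series were 17927838 to 32245168 counts, which limits what can be seen of genes near 3 counts.

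edgeR 4.0.16 (R 4.3.3) was fitted to all 18 libraries with 1 mean per group, TMM scaling and the filterByExpr filter, and contrasts were tested with the quasi-likelihood test and Benjamini-Hochberg adjustment over all genes tested, at 0.05. CPM values are TMM-scaled. The change of the organ difference is (HFs minus KFs) minus (HFc minus KFc). A gene with no more than 3 counts in each library of a group is given a lower bound, computed as if each of those libraries held 3 counts. Limma 3.58.1 (voom with sample quality weights), DESeq2 1.42.0, other scalings and filters, thinning (seed 11), a replicate block and the omission of each library were the alternatives. The procedure was tested on simulated counts with 100 changes of 1 and 100 changes of 2 on the log2 scale. With all libraries it found 41 and 100 of these, with 2 false calls. Without KFs replicate 3 it found 30 and 99, with 10 false calls. The simulation gave every library the same spread, so it does not cover a spread that differs between groups. It changed only genes well above 3 counts and held no outlying library. The numbers found therefore do not cover genes near 3 counts or a library such as KFs replicate 3.

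Genes were named by size (12 per direction, by the rule given in the text), by list (up to 6 members per list and direction with the smallest adjusted p without KFs replicate 3), by the change between culture and transplant (6 genes) and by level in KFs replicate 3 (8 genes of at least 20 CPM). Genes named outside these rules, such as Mki67, Acta2, Col1a1, Ldha, Gata6, Hoxd8, Ddit3, Vegfa and Dsp, were chosen after their values were seen. The libraries compared, the lists and the tests were chosen with earlier results of these data known. Samples with the same replicate number in HFs and KFs did not deviate together from their group means (correlations of -0.10, -0.17 and -0.03), and no pairing was used. KFs replicate 3 weighs on the KFs mean in this check, which therefore cannot exclude pairing. Promoter windows are from RefSeq (GRCm38.p6). Some genes that these rules named are not reported here.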

Additional observations from a re-analysis of the deposited data

Results flagged for a closer look

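The organ difference changed between culture and transplant for 4347 genes, by the test of the change itself in edgeR. Among the 3477 protein-coding genes whose change was also called without KFs replicate 3 and whose highest group mean was at least 5 CPM, the 6 largest fitted changes were those of Car2 (log2 11), Cdh16 (10.4), St8sia1 (10.2), Fndc10 (9.38), Fut9 (8.8) and Adh1 (8.54). All 6 were at 0 in the 3 HFc libraries, so these fitted sizes depend on the prior count and are no bounds. Cdh16, a cadherin of kidney tubules, was at 1.14, 16.8 and 9.34 CPM in HFs and 7.56, 4.52 and 58.8 CPM in KFs, and at 16.8 to 18.2 CPM in KFc. Fut9, a fucosyltransferase, was at 7.76, 40.8 and 6.46 CPM in HFs and 5.70, 3.14 and 11.3 CPM in KFs. HFs replicate 2, which held the highest sum of proximal tubule markers (1990 CPM), was the highest HFs library for all 6 genes. The part of tubule RNA in these values was not tested.

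For 21 DNA replication genes and 20 mitosis genes, the level was higher in KFs than HFs, higher in HFc than KFc, and the change passed the test. In groups of 3 libraries no search for single outlying values was made.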

How the results depend on the processing

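Of 16577 genes tested, 5504 differed between HFs and KFs. This count was 3517 with limma voom and sample quality weights, 883 when only the HFs and KFs libraries entered the fit, 3317 at an adjusted p of 0.01 and 2096 with a log2 fold change limit of 1. The count higher in HFs (2356) was 1528 with library size alone, 1499 with voom, 457 with only the groups compared, 1413 at 0.01 and 1068 with the limit. The count higher in KFs (3148) was 5129 with library size alone, 2018 with voom, 426 with only the groups compared, 1904 at 0.01 and 1028 with the limit. The heart-enriched count (26) was 16 with only the groups compared. The kidney-enriched count (30) was 9 with voom, 7 with only the groups compared and 12 at 0.01. The count of changed organ differences (4347) was 2386 at 0.01 and 2176 with the limit. Leaving out 1 library at a time gave 4126 to 6570 genes that differ, 1872 to 3071 higher in HFs, 2254 to 3499 higher in KFs, 24 to 29 heart-enriched, 14 to 39 kidney-enriched, 26 to 27 Hox and 3249 to 5962 changed genes, the highest count of genes that differ being that without KFs replicate 3.

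The list genes and the genes named by size were picked with the fit without KFs replicate 3. Their calls in that fit are therefore partly set by the selection. The counts that follow are of results for named genes: differences between HFs and KFs and, for 6 genes, also the change between culture and transplant. A result kept its status if it was called in both fits with the same sign, or in neither fit. With only the groups compared in the fit, 198 of 343 results kept their status and 145 lost their call. The 198 include results called in neither fit and are no count of calls kept. Of 350 such results, 270 kept their status without KFs replicate 3, 23 lost their call, 49 gained one and 8 changed sign. In log2 units of HFs minus KFs, and giving the lowest value on leaving out 1 library and then the value without KFs replicate 3, these were Trpm3 (-4.3 and 0.81), Col4a3 (-4.49 and 0.66), Sema4d (-0.40 and 1.05), Lamb3 (-1.54 and 2.26), Igf1r (-0.15 and 0.31), Trpm6 (-0.94 and 2.28), Ttn (-2.33 and 1.28) and Dsp (-3.5 and 0.88). With voom, Trpm3 stood at 0.20, Trpm6 at 1.84 and Dsp at 0.33. The cause was not tested. With the replicate block 5185 genes were called, 5083 of which were also called in the same direction when no block was used. Whether the replicate numbers pair the samples was not settled. DESeq2 called 5876 genes, 5340 of them shared in direction. Genes near 3 counts per library could not be compared at this depth.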
